A study of Mus musculus with 6 samples.

Results

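The suppressor of cytokine signalling (SOCS) family has 8 genes, Cish and Socs1 to Socs7, and was measured in mouse skeletal muscle by 12 of the 35557 probe sets on Affymetrix MoGene arrays. A probe set was taken as a member where the platform's annotation gave it 1 gene symbol and that symbol was a family gene. Socs2 and Socs3 had 2 probe sets each, Socs6 had 3, and the other 5 genes had 1. The series, titled for SOCS-3 in muscle, compared muscle of 3 mice labelled transgenic (TG) with muscle of 3 mice labelled wild type (WT), with 1 array and 1 named subject per mouse. The labels name neither what the transgene carries nor its promoter, strain, age or muscle. Array medians lay between 5.98 and 6.04 on the log2 scale, Pearson correlations over all probe sets were 0.988 to 0.991 between arrays of different groups, and the 17 muscle fibre markers measured, such as Ckm and Acta1, averaged 13.36 to 13.42 on every array. The number of arrays limits the precision of every comparison.

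SOCS proteins are feedback brakes on cytokine and hormone receptors that signal through JAK kinases and STAT transcription factors. A cytokine activates a STAT, the STAT switches on a SOCS gene, and the SOCS protein binds the receptor or its kinase through an SH2 domain and recruits an elongin-cullin ubiquitin ligase through its C-terminal SOCS box. In muscle, growth hormone acting through STAT5 induces Cish and Socs2, interleukin 6 and related cytokines acting through STAT3 induce Socs3, and SOCS3 can also bind the insulin and leptin receptors.

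Stretches of Cish and Socs3 are shown because the STATs that induce these genes bind the palindrome TTCNNNGAA. RefSeq promoter windows (GRCm38.p6, 250 bases before to 50 bases after a transcription start) matched 4 of the 8 genes, Cish, Socs1, Socs3 and Socs4. The motif reads the same on both strands, and capitals mark its matches. Cish, on the plus strand, had 2 matches, at positions 1 to 9 and 12 to 20 counted from the start used by its 1 window. By that start alone they lie at the very start of the transcript. The 30 bases around them are at chr9:107296655-107296684. Socs3, on the minus strand, had 1 match, at positions -154 to -146, and the 30 bases around it are at chr11:117969501-117969530. The start used by that window lies 970 bases inside the RefSeq span of Socs3, so the match lies within the gene's annotated span and not before it. Bases before the 5′ end of that span were not searched. The start used for Cish is the 5′ end of its span.
Cish: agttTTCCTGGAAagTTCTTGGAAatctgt
Socs3: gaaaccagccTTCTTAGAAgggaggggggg
Of 32851 windows of 300 bases in the RefSeq table, 8.30% held at least 1 match and 0.457% held 2 or more. The Socs1 and Socs4 windows held 0 matches.

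Probe sets of 1 gene were kept apart because their identifiers did not all sit beside their gene. Identifiers on this platform run along the chromosomes, as shown by the genes next to each member's identifier. For 8 of the 12 probe sets, at least 28 of the 30 nearest placed genes lay on the gene's own chromosome. Socs2 lies on chromosome 10, and probe set 10372069 had 28 of its 30 nearest placed genes there, between Cradd and Mrpl42. Probe set 10394674, also annotated to Socs2, had 27 of 30 on chromosome 12 and 0 on chromosome 10, with Ntsr2 as the next gene. Socs6 lies on chromosome 18, and probe sets 10460118 and 10460116 had 15 of 30 neighbours there, while 10566668 had 30 of 30 on chromosome 7, among odorant receptor genes. Socs3 is on the minus strand of chromosome 11. Its probe set 10393449 had 30 of 30 neighbours with a known strand on the minus strand. The other, 10383010, had all 30 on the plus strand and carries 1 transcript accession that the first does not list. Where the probes of each set lie was not analysed here, so it was not tested whether 10394674 and 10566668 read a copy elsewhere in the genome, or 10383010 the opposite strand.

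No family member passed the test between groups. By limma over all probe sets, 0 of 12 members had an adjusted p under 0.05, as did 0% of the whole table. Cish and Socs2 had the largest differences, both with lower values in TG, and Socs3 had a smaller one in the same direction. At an unadjusted p under 0.05, 5 of 12 were lower in TG, where 3.40% of all probe sets were, and 0 were higher, where 2.52% were. These 5 were the Cish probe set, both Socs2 probe sets and both Socs3 probe sets. In the same 5 every TG array lay below every WT array, which held for 6.76% of all probe sets, and 0 of 12 had every TG array above every WT array, which held for 5.04%. Socs2 and Socs3 entered each of these counts with 2 probe sets. Counted by gene, at the highest-mean probe set, 3 of 8 were lower at an unadjusted p under 0.05, where 3.50% of all genes were. The same 3 had every TG array below every WT array, as did 1548 of all 19938 genes. Socs1, Socs4, Socs5, Socs6 and Socs7 had overlapping groups. The median log2 difference over the 12 probe sets, TG minus WT, was -0.086, beside -0.0094 over all probe sets.

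**Figure D1:**
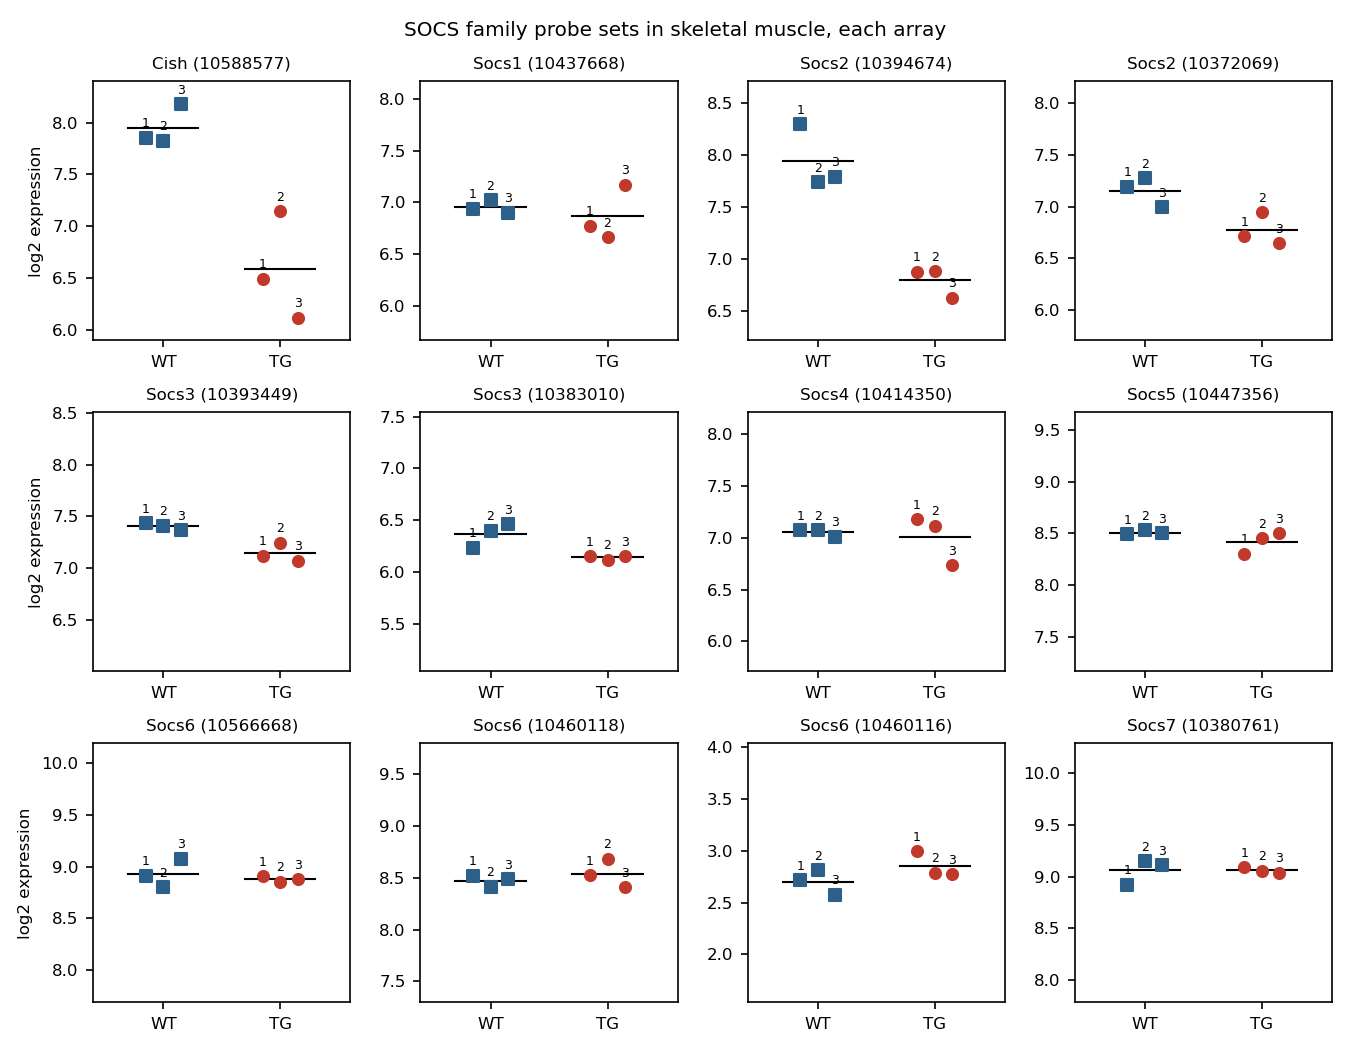
Log2 expression (vertical axes, all of the same span but centred differently) of the 12 SOCS family probe sets on the 3 WT arrays (blue squares) and 3 TG arrays (red circles), with the replicate number beside each point and the group mean as a line. Cish and Socs2 probe set 10394674 show the widest gaps between groups, while Socs5, Socs6 and Socs7 show overlapping groups.

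Cish, which encodes a STAT5-induced inhibitor that binds growth hormone and interleukin 2 family receptors, stood at 6.49, 7.15 and 6.12 on TG arrays 1, 2 and 3 and at 7.85, 7.82 and 8.18 on WT arrays 1, 2 and 3. The groups did not overlap, and 0.68 log2 units separated the highest TG array from the lowest WT array. The TG arrays were spread over 1.03 units and the WT arrays over 0.35. The log2 difference was -1.37 (SE 0.27, 95% interval -2.02 to -0.71, n = 3 each; limma, adjusted p = 0.728), or 2.58-fold lower. Its pooled SD within groups, 0.39, was at the 90.9th percentile of all probe sets, so Cish varied more between mice of 1 group than most probe sets did. TG array 2 was the high member of its group and TG array 3 the low one, and the difference was -1.65 without the first, -1.13 without the second and between these values without each other array.

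Socs2, which encodes the brake on growth hormone receptor signalling whose loss gives oversized mice, gave 2 different sizes of difference. Probe set 10394674, the one whose identifier sits among chromosome 12 genes, read 6.88, 6.88 and 6.63 on the TG arrays and 8.30, 7.74 and 7.79 on the WT arrays. All TG values were below all WT values, with a gap of 0.86. Its difference was -1.15 (SE 0.17, 95% interval -1.56 to -0.74, n = 3 each; limma, adjusted p = 0.691), or 2.22-fold lower. It passed in 1 alternative, added after seeing the data, that kept only the probe set with the highest mean of each gene and let the variance follow intensity (limma, adjusted p = 0.0371, over a range of 0.0371 to 0.999 across its alternatives). In that alternative 7 of all 19938 genes passed.

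Probe set 10372069, whose identifier sits with the Socs2 locus on chromosome 10, read 6.71, 6.95 and 6.64 on the TG arrays and 7.19, 7.27 and 6.99 on the WT arrays. The groups again did not overlap, but by 0.045 only, between TG array 2 and WT array 3. The difference was -0.38 (SE 0.11, 95% interval -0.66 to -0.10, n = 3 each; limma, adjusted p = 0.80), or 1.30-fold lower. The ratio of the first Socs2 probe set to the second, taken within each array on the log2 scale, was 0.16, -0.07 and -0.02 in TG and 1.11, 0.47 and 0.80 in WT. The change in this ratio was -0.77, with no overlap between groups (two-sided exact permutation test, p = 0.10, the smallest that 3 against 3 allows; 0.30 adjusted over the 3 genes with such a pair).

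Socs3, the gene of the series title and the feedback inhibitor of interleukin 6 family, leptin and insulin signalling, had narrow spreads and small differences. Probe set 10393449, on the strand of the gene by its neighbours, read 7.12, 7.25 and 7.07 on the TG arrays and 7.43, 7.41 and 7.37 on the WT arrays. The lowest WT array was 0.12 above the highest TG array. The log2 difference was -0.26 (SE 0.07, 95% interval -0.43 to -0.08, n = 3 each; limma, adjusted p = 0.799), or 1.20-fold lower. Its SD within groups was at the 16.0th percentile of all probe sets, against the 90.9th for Cish. Probe set 10383010 read 6.15, 6.12 and 6.15 on the TG arrays and 6.23, 6.40 and 6.46 on the WT arrays, a difference of -0.22 (SE 0.08). The within-array ratio of the 2 Socs3 probe sets moved by -0.034 between groups (two-sided exact permutation test, p = 0.70). No Socs3 probe set read higher in TG. Neither value checks the label of a TG array, since the sources used here do not say what the transgene carries or whether either probe set would detect it.

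**Figure D2:**
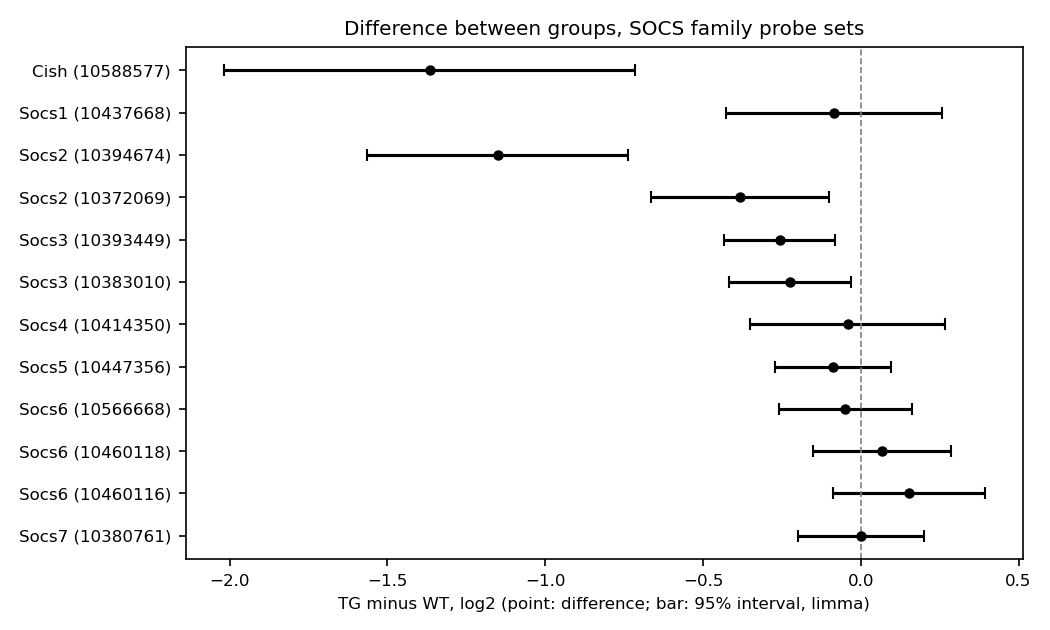
Log2 difference, TG minus WT (horizontal axis), of the 12 probe sets, with points for the difference and bars for the 95% interval from limma, unadjusted. The intervals of Cish, both Socs2 and both Socs3 probe sets lie below 0 and the other 7 include 0.

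Socs1, the interferon-induced inhibitor that blocks JAK kinases directly, read 6.77, 6.66 and 7.17 on the TG arrays and 6.94, 7.02 and 6.90 on the WT arrays. TG arrays held both its lowest and its highest value, so the groups overlapped fully. The difference was -0.08 (SE 0.14, 95% interval -0.43 to 0.26), and the interval leaves room for a difference of either sign.

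Socs4 and Socs5 encode family members with long N-terminal regions that have been tied to epidermal growth factor receptor turnover. Socs4 read 7.18, 7.12 and 6.74 on the TG arrays and 7.07, 7.07 and 7.01 on the WT arrays, and TG array 3 alone was low. Its difference was -0.04 (SE 0.13), and it was 0.10 without TG array 3. Socs5 read 8.30, 8.46 and 8.50 on the TG arrays and 8.49, 8.53 and 8.50 on the WT arrays, a difference of -0.09 (SE 0.08, 95% interval -0.27 to 0.10).

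Socs6 and Socs7 encode members that bind insulin receptor substrates and related adaptors. Socs7 read 9.09, 9.06 and 9.04 on the TG arrays and 8.92, 9.15 and 9.11 on the WT arrays, and its 95% interval was -0.20 to 0.20, beside a spread of 0.23 over the WT arrays. Socs6 probe set 10460118 read 8.52, 8.68 and 8.41 on the TG arrays and 8.52, 8.41 and 8.48 on the WT arrays. The one among chromosome 7 identifiers, 10566668, read 8.91, 8.85 and 8.88 on the TG arrays and 8.91, 8.80 and 9.08 on the WT arrays. Their differences, 0.07 (SE 0.09) and -0.05 (SE 0.09), had opposite signs within their errors. The third Socs6 probe set, 10460116, annotated to 1 cDNA, was dim on every array, from 2.57 to 3.0, at the 4.19th percentile of mean level, and gave a difference of 0.15 (SE 0.10).

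Within the TG group, 4 of the 5 probe sets with lower TG values had the same order of arrays, with TG array 3 lowest and TG array 2 highest. In 1 of the 4, Socs2 probe set 10394674, TG arrays 1 and 2 were almost level, at 6.876 and 6.879. The exception to the order was Socs3 probe set 10383010, where the TG arrays were within 0.035 of each other. The 4 include both Socs2 probe sets, so they are not 4 separate genes. Of all 12 family probe sets 5 had the order, the other being Socs6 probe set 10460118, whose groups overlapped. That order was found in 15% of all probe sets and in 15 of the 16 hepatocyte markers measured, such as Alb and Apoa1. These markers were listed as typical of hepatocytes, and the source of their signal in muscle was not tested. In TG their summed linear level ran from 1107 to 4845 and in WT from 2308 to 3746. Of these markers 16 of 16 had a lower mean in TG, where 56.2% of all genes had. The markers had a median difference of -0.52 and none passed the threshold. Their mean log2 level was 6.42, 7.65 and 5.69 on TG arrays 1, 2 and 3 and 6.79, 7.33 and 7.30 on the WT arrays. TG array 2 had the highest hepatocyte level of all 6 arrays and TG array 3 the lowest. Among WT arrays the hepatocyte mean was lowest on array 1, where Socs2 probe set 10394674 and Socs3 probe set 10393449 were highest. In WT, Cish was highest on array 3 and Socs2 probe set 10372069 on array 2. With the mean hepatocyte level as a covariate, the differences were -1.09 (SE 0.13) for Cish, -1.14 (SE 0.20) and -0.31 (SE 0.11) for the Socs2 probe sets, and -0.22 (SE 0.08) for Socs3 probe set 10393449.

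Markers of T and NK lymphocytes, cells that also express Cish and Socs1, had differences below 0 for 7 of 12 measured genes, as did 56.2% of all genes, with a median difference of -0.14 and none past the threshold. Their mean log2 level was 4.66 to 4.76 in TG and 4.76 to 4.87 in WT, and their summed linear level 356 to 404 in TG and 382 to 423 in WT. The mean was lower on every TG array than on every WT array, and below the median of each array. TG array 3 and WT array 2 were almost level, however, at 4.75655 and 4.75678. Because the mean ran lower in TG, a fit with this covariate cannot separate it well from the group. With that mean as a covariate the Cish difference was -1.47 (SE 0.44), those of Socs2 probe sets 10394674 and 10372069 were -1.35 (SE 0.25) and -0.60 (SE 0.14), and that of Socs4 was -0.28. Of the macrophage markers 11 of 13 were above 0, beside 8728 of all 19938 genes, with a median of 0.08. Bone and osteoclast markers averaged 6.21 on TG array 1 and 5.58 to 5.87 on the other arrays, and without TG array 1 the differences were -1.32 for Cish and -1.19 for Socs2 probe set 10394674. The lists of other cell types not given above, 7 with the bone list, had median differences from -0.17 (erythroid) to 0.16 (adipocyte). In whole muscle, fewer cells of a type and less RNA per cell cannot be told apart. The part of these cell types in the family's differences was not tested.

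**Figure D3:**
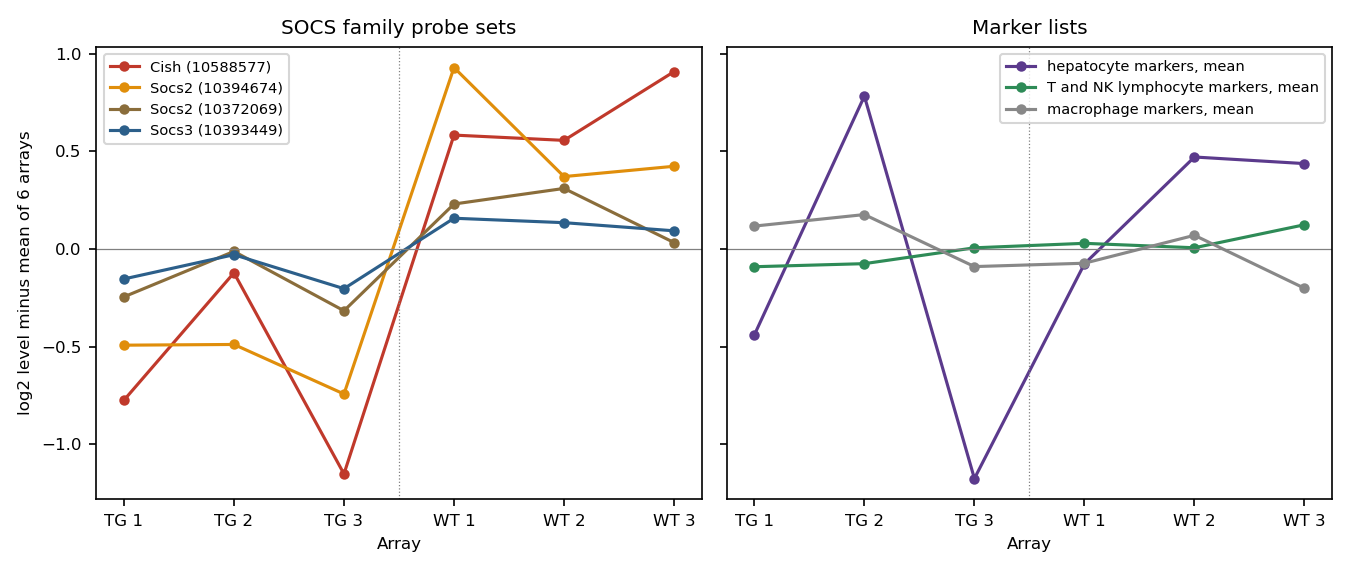
Log2 level minus the mean of the 6 arrays (vertical axis) on each array (horizontal axis, TG left of the dotted line) for Cish, Socs2 and Socs3 probe sets (left) and the mean of 3 marker lists (right). Cish and Socs2 are below their mean on all 3 TG arrays, while hepatocyte markers are highest on TG array 2 and lowest on TG array 3.

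The genes with the profile most like each of these members were found by the root mean square (RMS) difference of log2 values over the 6 arrays, after each probe set was set to a mean of 0. This is a description over 6 arrays that share the group difference. For Cish the 5 nearest of 19937 genes were 1700001O22Rik (RMS difference 0.31), the inflammatory caspase gene Casp12 (0.31), Tmem100 (0.32), Socs2 (0.36) and Mss51, a mitochondrial gene of muscle (0.37). Socs2, taken at probe set 10394674 only, was thus 4th for Cish, and Cish was 14th for that probe set. The other Socs2 probe set was not ranked. The RMS difference includes the group difference, which was -1.37 for Cish and -1.15 for Socs2 probe set 10394674. These places therefore do not show whether Cish and Socs2 vary together within a group. Mss51 read 7.88, 8.20 and 7.94 on the TG arrays and 9.11, 8.55 and 9.83 on the WT arrays, so its groups did not overlap either, and its WT arrays were spread more widely than those of Cish. For Socs2 probe set 10394674 the nearest were Casp12 (0.20), the interferon-induced GTPase gene Iigp1 (0.24), the serine protease gene Htra4 (0.25), Gm4871 (0.28) and the vomeronasal receptor gene Vmn2r93 (0.29). For Socs3 probe set 10393449 they were Skint10 (0.0099), Kcnh3 (0.023), Cdh8 (0.033), Gpr37l1 (0.038) and Cfap100 (0.040). Skint10 was read at 3.06 to 3.42, Gm4871 at 3.61 to 4.58 and Vmn2r93 at 3.82 to 5.19. Cfap100 was at 4.47 to 4.84 and Cdh8 at 4.76 to 5.07. All of these lie below the lowest array median, 5.98. The distance is small for Socs3 because its own range over the 6 arrays, 0.36, is small. Socs3 probe set 10393449 was 455th for Cish and 311th for Socs2 probe set 10394674, and Socs1 was 15493rd and 10422nd.

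**Figure D4:**
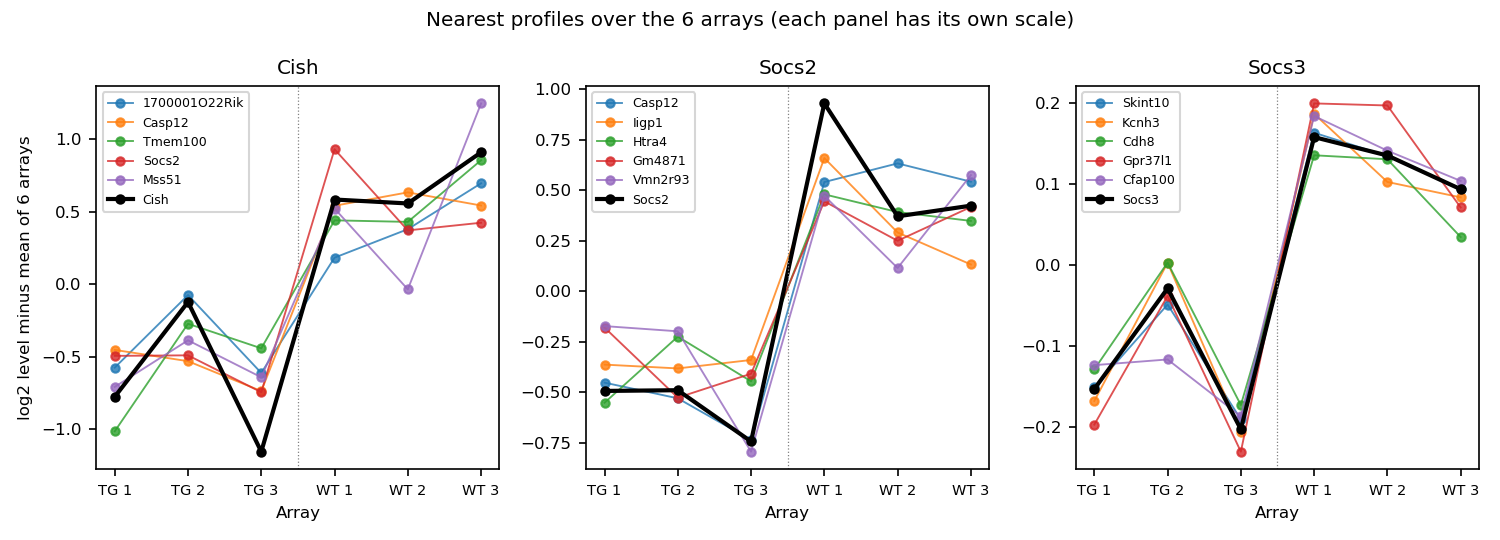
Log2 level minus the mean of 6 arrays (vertical axes, each panel on its own scale) on each array for Cish, Socs2 probe set 10394674 and Socs3 probe set 10393449 (black) and the 5 genes with the smallest RMS difference from each (colours). The Socs3 panel covers a far narrower range of log2 units than the Cish panel.

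The genes around the family were counted in 9 lists of 146 measured genes. By limma 0 of 146 passed in either direction. At an unadjusted p under 0.05, 5 were lower and 2 higher in TG, where 3.50% and 1.36% of all genes were. The median difference was 0.003 over the 146 genes and -0.016 over all genes.

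Among ligands, the cytokines that start the signal, 0 of 20 passed in either direction and the median was -0.02. The interleukin 2 gene Il2 was at -0.24 (SE 0.09) and the leptin gene Lep at 0.26 (SE 0.13). Both were dim, reading 3.65 to 4.11 and 4.10 to 4.70 over the 6 arrays, below every array median. Of the receptors 0 of 26 passed either way, with a median of 0.02. Cntfr, which encodes the ligand-binding subunit of the ciliary neurotrophic factor receptor, read 8.76, 8.65 and 8.00 on the TG arrays and 7.57, 7.77 and 7.50 on the WT arrays. Every TG array was above every WT array, and the difference, 0.86 (SE 0.21; limma, adjusted p = 0.796), was the one in these lists farthest above 0. The erythropoietin receptor gene Epor was at -0.24 (SE 0.10).

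Of the JAK kinases and STATs 0 of 9 passed either way, with a median of -0.01. Stat3, the factor that induces Socs3, read 8.95, 8.94 and 8.94 on the TG arrays and 9.18, 9.35 and 9.19 on the WT arrays, a difference of -0.30 (SE 0.07; limma, adjusted p = 0.790). The TG arrays were within 0.02 of each other and below all WT arrays. Stat5a and Stat5b, which induce Cish and Socs2, were at 0.03 (SE 0.08) and 0.19 (SE 0.10), with overlapping groups. Jak1, Jak2 and Tyk2 were at -0.01, 0.06 and -0.07. The adaptors and other proteins that SOCS proteins bind had 0 of 12 past the threshold and a median of -0.06, with the insulin receptor substrate gene Irs1 at -0.18 (SE 0.15) and the Ras inhibitor gene Rasa1 at 0.13 (SE 0.10).

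Other brakes on the pathway had 0 of 13 past the threshold and a median of 0.004, with Pdlim2, a ubiquitin ligase gene for STATs, at -0.29 (SE 0.10) and the adaptor gene Sh2b3 at -0.12 (SE 0.07). The elongin-cullin ligase through which the SOCS box works had a median of 0.07 and no gene past the threshold. Of its genes 10 of 12 were above 0, beside 8728 of all 19938 genes. Its RING subunit gene Rnf7 was at 0.24 (SE 0.16), the cullin gene Cul5 at 0.02 (SE 0.06), the elongin genes Eloc and Elob at 0.07 and -0.05, and the ubiquitin-conjugating enzyme gene Ube2d1 at -0.14 (SE 0.08). Other SOCS box proteins, many of them ankyrin repeat proteins of muscle, had 0 of 28 past the threshold and a median of 0.02, and all lay between -0.15 and 0.28, with Asb10 and Asb18 at -0.15 and -0.14 (SE 0.08 and 0.07).

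No gene in the lists of genes responsive to STAT5 and STAT3 had a difference as far from 0 as those of Cish and Socs2 probe set 10394674. Socs2 probe set 10372069, at -0.38, was nearer 0 than Fos and Odc1. The STAT5-responsive list had 0 of 13 past the threshold and a median of -0.05. In it 8 of 13 were below 0, beside 56.2% of all genes. The polyamine enzyme gene Odc1 read 10.50, 11.0 and 10.71 on the TG arrays and 11.09, 11.41 and 11.35 on the WT arrays, a difference of -0.55 (SE 0.15; limma, adjusted p = 0.799). The transcriptional repressor gene Bcl6 was at -0.38 (SE 0.17), and Igf1, which encodes the main growth hormone effector, at -0.07 (SE 0.15). The STAT3-responsive list had 0 of 22 past the threshold and a median of -0.05, led by Stat3 itself and the NF-kappaB cofactor gene Bcl3 at -0.24 (SE 0.07). The immediate early gene Fos had the value farthest from 0 in that list, -0.98, with overlapping groups and an SE of 0.53.

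**Figure D5:**
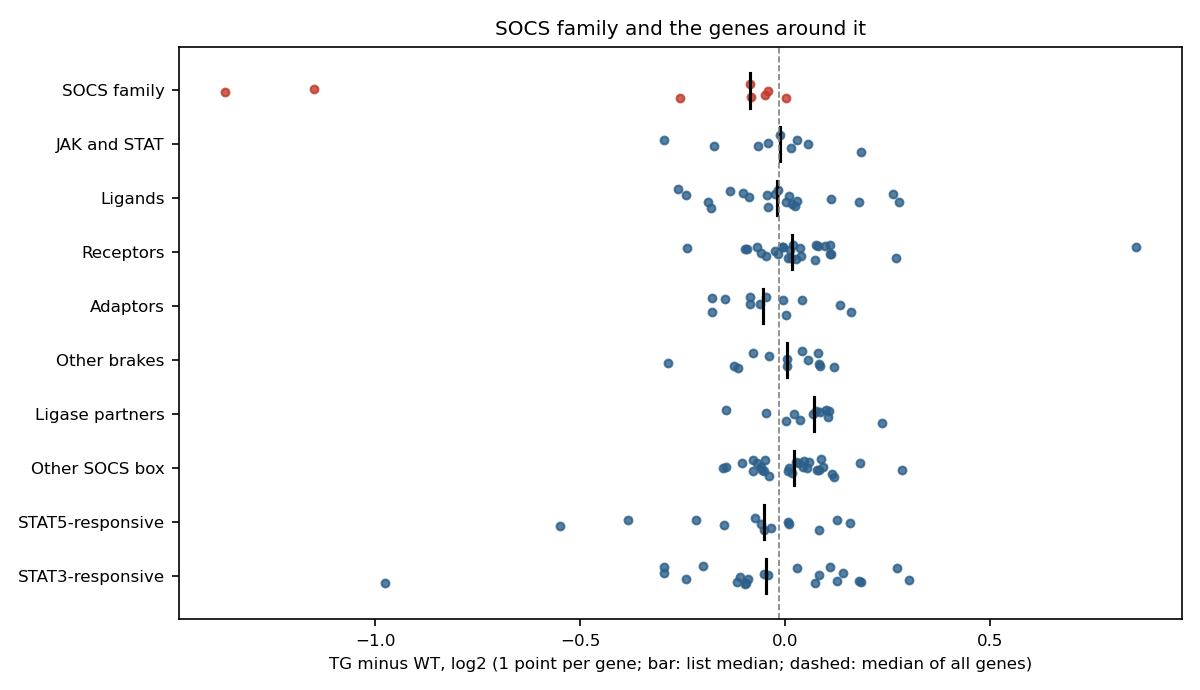
Log2 difference, TG minus WT (horizontal axis), of the 8 family genes by their highest-mean probe set (red) and of the genes in 9 lists around the family (blue), with 1 point per gene, a bar at each list's median and a dashed line at the median of all genes. Cish at -1.37 and Socs2 probe set 10394674 at -1.15 lie farther below 0 than any of the 146 listed genes, whose lowest value is -0.98. Socs2 probe set 10372069, at -0.38, is not plotted and does not lie below that value.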

How the data were processed

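Total RNA from frozen muscle was biotin-labelled for Affymetrix MoGene arrays, per the labels' protocols and the design text. Values were used as the authors deposited them, in a log2 table (log2 was read from their range, 1.41 to 15.1). How they were summarized, background-corrected, normalized and centred is stated in neither the labels nor the design text. The 6 arrays (3 TG, 3 WT, numbered in deposit order) were compared with limma 3.58.1 in R 4.3.3, two-sided, over all 35557 probe sets, with Benjamini-Hochberg adjustment at a threshold of 0.05, and every difference is TG minus WT. Symbols came from the platform's annotation, which gave 1 symbol to 21789 probe sets, several to 1621 and none to 12147. Genes other than members were taken at their highest-mean probe set. The members, lists and tests were chosen with earlier results of these data known.

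All member probe sets are named, with the 2 genes of smallest p in each pathway list and the 5 nearest profiles. List genes beyond these were chosen after their values were seen. Figures used matplotlib 3.10.9. On 20 simulated tables of 35557 probe sets with 200 changed, the test recovered 19.9% of log2 differences of 0.5, 63.4% of 1 and 88.0% of 2, and 5.26% of calls were false. Alternatives were other sets of probe sets, quantile or median scaling, an intensity trend, robust moderation, array weights, hepatocyte or lymphocyte markers as a covariate, and each array left out in turn. Profiles were compared by the root mean square difference of centred log2 values. One further gene list is not reported here.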

Additional observations from a re-analysis of the deposited data

How the results depend on the processing

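The number of family probe sets past the threshold was 0 in every alternative except 1 chosen after seeing the data, which joined the highest-mean probe set of each gene with an intensity trend and gave 1, Socs2 probe set 10394674. In that alternative 7 of all 19938 genes passed. The number of listed genes past the threshold was 0 in every alternative run. Taking the highest-mean probe set, or the mean of the probe sets, of each gene left fewer probe sets to count. The members whose TG arrays all lay below the WT arrays then numbered 3 of 8 genes. By the highest-mean probe set this held for 1548 of all 19938 genes. Without each array in turn, such members numbered 5 to 7 of 12 probe sets. Groups separate more easily with 1 array fewer, and the share over all probe sets was not counted there. Cish, Socs2, Socs3 and Socs5 kept their sign in all alternatives run. Values near 0 changed sign. With quantile normalization Socs7 was at -0.0142. With the mean of its probe sets Socs6 was at 0.0565. With the hepatocyte covariate Socs4 was at 0.0406. With the lymphocyte covariate Socs1 was at 0.0700, and Socs6 probe sets 10566668 and 10460116 were at 0.0811 and -0.0346. Without each array in turn, Socs1 ranged from -0.235 to 0.0184, Socs4 from -0.127 to 0.0952, Socs7 from -0.0686 to 0.0461, and Socs6 probe sets 10566668 and 10460118 from -0.113 to 0.0241 and from -0.00651 to 0.131. The cause of these sign changes was not tested. No paired analysis was possible because the labels give no replicate numbers shared between groups. Signal over background could not be assessed from the deposited values.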
